A study of Homo sapiens with 11 samples.

Results

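LINC genes are long intergenic noncoding RNA genes that carry a systematic name beginning with LINC. Here, the Ikaros peaks assigned to them were taken from 5 chromatin immunoprecipitation sequencing (ChIP-seq) peak lists of human B-cell acute lymphoblastic leukemia lines. A peak was a member when it lay on chromosomes 1 to 22 or X and the gene name that the authors had attached to it began with LINC. Of 300033 peaks in the 5 lists, 12317 met this rule, and they named 1478 LINC genes.

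One list came from JM1 cells treated for 1 day with 20 µM CX-4945, which inhibits the kinase CK2, and another from untreated JM1 cells. The remaining 3 came from Nalm6 cells treated likewise with CX-4945, from untreated REH cells and from untreated 697 cells. All 4 are established lines derived from leukemic B-cell precursors. The JM1 and REH chromatin was precipitated with a Bethyl antibody and the 697 and Nalm6 chromatin with an affinity-purified one, so line and antibody cannot be told apart between these pairs. Each condition had 1 list, so no difference below has a replicate check and intervals cover counting error only. Nalm6 had 2 Ikaros libraries and 1 list, and the sources used here do not say whether 1 or both went into it.

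Ikaros, encoded by IKZF1, is a zinc finger transcription factor needed for lymphocyte development and is often deleted or mutated in this leukemia. It binds DNA at sequences with a GGGAA core, and CK2 phosphorylates it, which lowers its DNA binding. Long noncoding RNAs are transcribed much like messenger RNAs, are often expressed in few cell types, and include RNAs that act on neighbouring genes, while for many of the genes named here no function is known.

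The sites that recurred at LINC names in all 5 lists are shown first, as the central 120 bases of the interval that the 5 peaks had in common (GRCh38, written on the plus strand). Capitals mark GGGAA or its reverse complement TTCCC. The first 6 are the LINC genes with a promoter peak in every list whose lowest score rank over the lists was highest.
LINC01465 (chr12:62603190-62603309, plus strand): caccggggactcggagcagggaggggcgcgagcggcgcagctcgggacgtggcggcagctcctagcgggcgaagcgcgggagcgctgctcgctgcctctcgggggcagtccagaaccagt
LINC02028 (chr3:194071109-194071228, plus strand): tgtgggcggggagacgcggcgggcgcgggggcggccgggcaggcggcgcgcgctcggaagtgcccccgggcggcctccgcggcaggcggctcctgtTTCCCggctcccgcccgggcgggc
LINC02175 (chr16:25066928-25067047, plus strand): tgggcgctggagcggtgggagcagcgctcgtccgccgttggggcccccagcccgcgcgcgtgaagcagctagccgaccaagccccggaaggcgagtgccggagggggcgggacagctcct
LINC02674 (chr10:117735186-117735305, plus strand): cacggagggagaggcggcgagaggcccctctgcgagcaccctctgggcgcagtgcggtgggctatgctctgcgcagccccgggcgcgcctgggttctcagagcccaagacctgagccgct
LINC00637 (chr14:103847802-103847921, plus strand): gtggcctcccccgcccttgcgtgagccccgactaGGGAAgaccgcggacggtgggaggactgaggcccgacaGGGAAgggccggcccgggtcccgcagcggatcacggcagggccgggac
LINC01122 (chr2:58428272-58428391, plus strand): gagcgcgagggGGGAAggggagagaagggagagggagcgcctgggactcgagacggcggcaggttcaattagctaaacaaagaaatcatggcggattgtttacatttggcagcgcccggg
The next 5 are the intron or intergenic regions chosen in the same way, each named by the LINC gene to which the authors assigned it.
LINC01816 region (chr2:70142295-70142414, plus strand): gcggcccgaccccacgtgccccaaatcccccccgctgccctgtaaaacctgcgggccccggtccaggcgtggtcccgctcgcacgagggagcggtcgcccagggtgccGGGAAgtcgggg
LINC01694 region (chr21:45590398-45590517, plus strand): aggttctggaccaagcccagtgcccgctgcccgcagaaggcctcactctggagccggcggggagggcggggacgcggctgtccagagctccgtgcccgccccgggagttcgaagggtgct
LINC00346 region (chr13:110874647-110874766, plus strand): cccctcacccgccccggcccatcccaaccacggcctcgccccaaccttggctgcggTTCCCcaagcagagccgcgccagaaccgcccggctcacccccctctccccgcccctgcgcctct
LINC02579 region (chr2:64609376-64609495, plus strand): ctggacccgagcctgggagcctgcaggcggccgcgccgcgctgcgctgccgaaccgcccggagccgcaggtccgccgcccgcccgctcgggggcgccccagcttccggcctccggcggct
LINC01169 region (chr15:66622272-66622391, plus strand): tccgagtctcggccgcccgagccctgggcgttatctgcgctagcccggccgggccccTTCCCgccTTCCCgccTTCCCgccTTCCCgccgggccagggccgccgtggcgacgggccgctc

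All 11 stretches were rich in G and C, with a GC content between 59.2% for LINC01122 and 85.8% for LINC02028. They held between 9 and 22 CpG dinucleotides each. GGGAA occurred in either orientation in 6 of the 11. The LINC01169 region had 4 copies, each written as TTCCC within a run of a repeated unit. The longer form TGGGAA, which contains GGGAA, occurred in 0 of the 11. In windows of the same length at the centre of every peak, GGGAA was present in 34.2% of all treated JM1 peaks, 34.9% of untreated JM1 peaks, 34.4% of treated Nalm6 peaks, 34.4% of REH peaks and 31.2% of 697 peaks. TGGGAA was present in 11.9%, 11.0%, 11.2%, 12.0% and 7.49% of the same windows, in that order of lists. A match describes the letters of a window and not a site of contact.

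LINC names took a small share of each list. They made up 3922 of 88622 treated JM1 peaks (4.43%, exact 95% Clopper-Pearson interval 4.29 to 4.56) and 1204 of 37419 untreated JM1 peaks (3.22%, 3.04 to 3.40). The share was 4.26% in treated Nalm6 (3021 of 70866), 4.47% in REH (3730 of 83516) and 2.24% in 697 (440 of 19610). When each list was reduced by score to 19610 peaks, the length of the 697 list, the shares were 2.63% in treated JM1, 2.56% in untreated JM1, 2.81% in treated Nalm6, 2.77% in REH and 2.24% in 697. LINC peaks named 1218 genes in treated JM1, 609 in untreated JM1, 1051 in treated Nalm6, 1144 in REH and 333 in 697. Of 2250 genes with a LINC name in GENCODE release 44, 52.0%, 25.8%, 45.0%, 49.1% and 14.0% had at least 1 peak in these lists. The share with a promoter class peak was 10.1%, 4.98%, 9.73%, 9.96% and 3.07%. Of the 1478 names, 1425 belonged to long noncoding RNA genes of that release, 36 belonged to long noncoding RNA genes now under another name, and 6 to genes now classed as protein-coding. LINC01578, for example, is now CHASERR, an RNA known to hold down the expression of its neighbour CHD2, and LINC00637 is now PPP1R13B-DT.

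LINC peaks lay outside genes more often than other peaks in all 5 lists. Intergenic peaks made up 58.3% of LINC peaks and 28.6% of the other peaks in treated JM1, and 53.2% and 20.1% in untreated JM1. The corresponding shares were 58.5% and 24.8% in treated Nalm6, 60.2% and 27.4% in REH, and 44.8% and 13.6% in 697. Promoter peaks were correspondingly scarce. They were 6.48% of LINC peaks and 16.5% of other peaks in treated JM1, 9.97% and 26.8% in untreated JM1, 8.11% and 19.7% in treated Nalm6, 6.84% and 17.3% in REH, and 18.2% and 41.3% in 697. Intron peaks were less frequent among LINC peaks in 4 lists, at 28.7% against 41.3% in treated JM1, whereas in 697 they made up 27.0% of LINC peaks and 24.5% of the others. LINC genes are intergenic by definition and a peak takes the name of its nearest promoter. The part of this naming in the intergenic share was not tested.

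**Figure D1:**
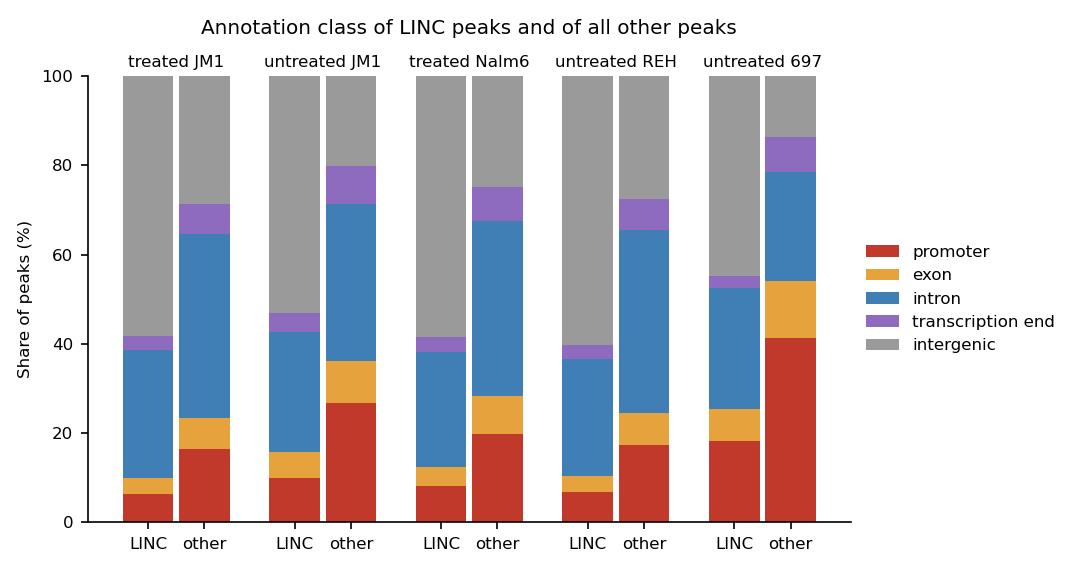
Annotation class of peaks in each list, as stacked shares in percent, with LINC peaks on the left of each pair and all other peaks on the right. Intergenic peaks took 44.8 to 60.2% of LINC peaks and 13.6 to 28.6% of other peaks.

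LINC peaks were also far from the starts of coding genes. The median distance from the peak centre to the nearest protein-coding transcription start site (TSS) was 90090 bp for LINC peaks and 10399.5 bp for other peaks in treated JM1, and 57329 bp and 3633 bp in untreated JM1. The distance to the TSS of the transcript named for the peak had a median of 14329.5 bp for LINC peaks and 6080.5 bp for other peaks in treated JM1, and 9953 bp and 2433.5 bp in untreated JM1. More than 100 kb separated the peak from its named TSS for 6.28% of LINC peaks and 2.29% of other peaks in treated JM1. Most intron class peaks with a LINC name lay in an intron of the LINC gene itself, from 78.1% of them in treated Nalm6 to 81.5% in 697, and at most 7.10% lay in an intron of a protein-coding gene. Taken over all classes, LINC peaks were narrower than the others, with median widths of 1050 and 1192 bp in treated JM1, 731 and 877 bp in untreated JM1, and 409.5 and 632 bp in 697. This did not hold between genes in every list. Intergenic medians for LINC and other peaks were 1049.5 and 1011.5 bp in treated JM1, 689 and 685 bp in treated Nalm6, and 1003 and 983 bp in REH. They were 693 and 725 bp in untreated JM1, and 372 and 434 bp in 697.

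Each peak carried a whole-number score that only ranks it within its own list. Its percentile is the share of the list's peaks scored lower, with ties placed at their midpoint. Scores printed below without a percentile cannot be compared between lists. A score of 20, for example, stood at percentile 60.6 in treated JM1 and 79.9 in untreated JM1. It stood at 48.1 in treated Nalm6, 44.3 in REH and 41.3 in 697. LINC peaks ranked lower than other peaks. Their median percentile was 45.6 against 51.2 in treated JM1, 40.3 against 49.9 in untreated JM1, 39.6 against 52.0 in treated Nalm6, 44.3 against 48.5 in REH and 37.7 against 51.4 in 697. The share of LINC names fell along the ranking. Among peaks below the 25th percentile, 5.19% in treated JM1, 4.3% in untreated JM1, 5.32% in treated Nalm6, 5.22% in REH and 3.29% in 697 had a LINC name. At the 75th percentile and above, the shares were 2.80%, 2.26%, 2.70%, 2.83% and 1.43% in the same order.

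Ranks were then compared within each class. Within intergenic peaks the medians of LINC and other peaks were equal in 4 lists, at 39.5 in treated JM1, 40.3 in untreated JM1, 39.6 in treated Nalm6 and 39.7 in REH, and were 30.2 and 34.1 in 697. Within intron peaks they were equal in both JM1 lists and in 697, and were 34.8 for LINC peaks against 43.9 for others in treated Nalm6 and 39.7 against 44.3 in REH. Many scores are tied, and equal medians can hide a difference. In untreated JM1, 14.8% of LINC intron peaks (11.1 to 19.2) and 19.4% of other intron peaks stood at the 75th percentile or above. Among intergenic peaks, LINC shares there were 12.8, 16.9, 13.4, 12.6 and 6.09% in treated JM1, untreated JM1, treated Nalm6, REH and 697. Those of other intergenic peaks were 14.2, 18.1, 14.7, 14.1 and 12.3%. The LINC intervals included these in untreated JM1 and treated Nalm6, and lay below them in treated JM1, REH and 697. Promoter peaks were the class in which the LINC median was lower in every list. In untreated JM1 and 697 its 95% interval, 49.9 to 65.0 and 44.9 to 70.1, included the median of other promoter peaks. The medians were 62.7 for LINC and 82.3 for other promoter peaks in treated JM1, 58.2 and 65.0 in untreated JM1, 62.0 and 77.5 in treated Nalm6, 62.7 and 81.6 in REH, and 61.8 and 64.1 in 697. Even so, promoter peaks had a higher median than intron or intergenic peaks among LINC peaks in all 5 lists.

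LINC promoter peaks also differed from the others in their distance to coding genes. A protein-coding TSS lay within 1000 bp of the peak centre for 14 of 254 LINC promoter peaks in treated JM1 (5.51%, 3.05 to 9.08), and for 85.0% of the other promoter peaks. It did so for 8 of 120 in untreated JM1 against 90.8% of others, for 19 of 245 in treated Nalm6 against 86.2%, for 14 of 255 in REH against 85.3% and for 12 of 80 in 697 against 93.2%. Compared only over promoter peaks away from any coding TSS, LINC peaks no longer ranked lower. Their medians were 60.6 for LINC peaks and 56.1 for others in treated JM1, 65.0 and 49.9 in untreated JM1, 60.5 and 55.6 in treated Nalm6, 59.5 and 56.2 in REH, and 58.2 and 44.9 in 697. The few LINC promoter peaks near a coding TSS had medians of 91.7 in treated JM1, 91.9 in treated Nalm6, 87.5 in REH and 70.1 in 697, but 40.3 in untreated JM1, where there were 8.

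**Figure D2:**
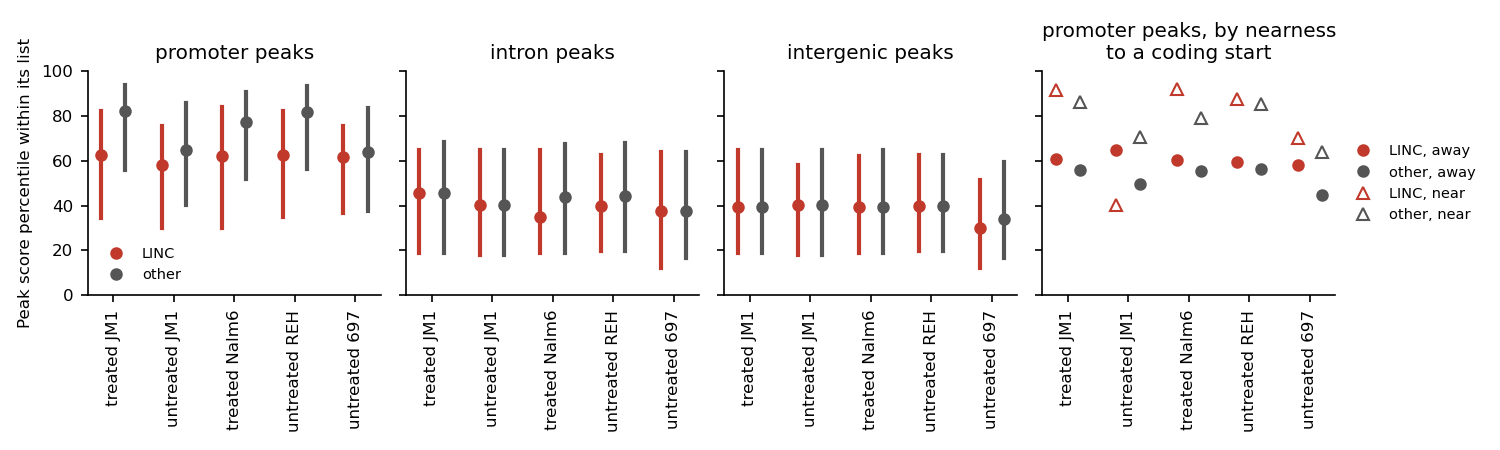
Score percentile within its list for promoter, intron and intergenic peaks (first 3 panels, median as a point and the range from the 25th to the 75th percentile of the peaks as a bar), with LINC peaks left of other peaks. The last panel gives medians of promoter peaks within 1000 bp of a protein-coding start (near, open triangles) and of those farther off (away, filled points): among those away, LINC medians lie between 58.2 and 65.0 and those of other peaks between 44.9 and 56.2.

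In JM1, the only line with both conditions, LINC sites were shared between the lists less often than sites as a whole. Of the 3922 LINC peaks of treated cells, 761 (19.4%, 18.2 to 20.7) overlapped an untreated peak by at least 1 bp, against 29.0% of all treated peaks. Of the 1204 LINC peaks of untreated cells, 893 (74.2%, 71.6 to 76.6) overlapped a treated peak, against 84.1% of all untreated peaks. The treated list was the longer by far, which by itself makes the second share larger than the first. With each list reduced to its 19610 top-scored peaks, 32.8% of treated LINC peaks overlapped, against 48.8% of all treated peaks, and 37.8% of untreated LINC peaks, against 57.9%. A reciprocal overlap of 50% left 5.76% of treated LINC peaks shared, against 9.88% of all, and 18.6% of untreated LINC peaks, against 23.4%.

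The difference from other peaks was seen at promoters, introns and transcript ends and was small between genes. Among treated JM1 peaks, 37.8% of LINC promoter peaks (31.8 to 44.1) and 55.6% of other promoter peaks overlapped an untreated peak. The shares were 18.3% and 23.7% for intron peaks, and 17.0% (15.5 to 18.6) and 18.3% for intergenic peaks. They were 20.0% (13.1 to 28.5) and 35.9% for transcript-end peaks, and 33.3% (25.5 to 41.9) and 40.5% for exon peaks. Among untreated JM1 peaks, the shares overlapping a treated peak were 85.8% and 96.0% for promoter peaks, 69.4% and 78.5% for intron peaks, and 72.2% (68.5 to 75.6) and 73.7% for intergenic peaks. For transcript-end peaks they were 80.0% (66.3 to 90.0) and 88.7%, and for exon peaks 90.0% (80.5 to 95.9) and 92.2%. Peak width moved with sharing. The 761 shared LINC peaks of treated cells had a median width of 2141 bp and a median percentile of 64.7, while the 3161 found with treatment alone had 913 bp and 39.5. The part of width in the overlap was not tested.

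**Figure D3:**
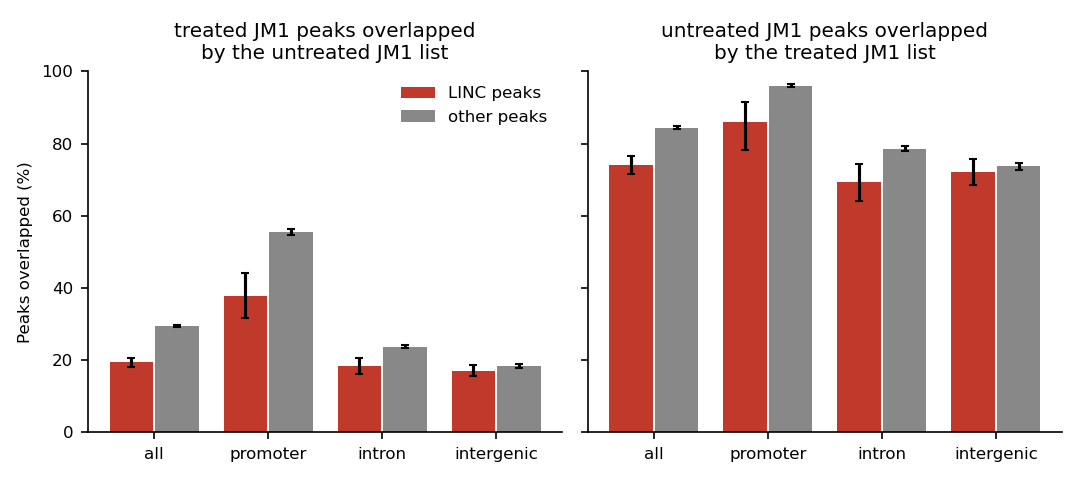
Share of JM1 peaks (percent, with exact 95% intervals) overlapped by at least 1 bp by a peak of the other JM1 list, for treated peaks (left panel) and untreated peaks (right panel), LINC peaks in red and other peaks in grey. LINC promoter peaks overlap less often than other promoter peaks in both panels, at 37.8% against 55.6% and 85.8% against 96.0%, and intergenic peaks differ least.

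LINC sites of treated JM1 were compared with the lists of the other lines. Of all 3922 treated JM1 LINC peaks, 59.8% overlapped a REH peak, 44.3% a treated Nalm6 peak and 7.96% a 697 peak. The shares of all treated JM1 peaks were 65.7%, 50.7% and 16.7%. Between genes the order was reversed for REH and treated Nalm6. Intergenic LINC peaks overlapped a REH peak at 57.9%, against 55.1% of other intergenic peaks, and a treated Nalm6 peak at 42.0%, against 39.2%. Both LINC intervals lay above the shares of other peaks. With 697 the intergenic shares were 5.46% and 7.21%. LINC shares were lower with all 3 lines for promoter, intron, exon and transcript-end peaks. Many of the sites found with treatment alone were thus present in REH, which was not treated. Of the 3161, 52.4% overlapped a REH peak, 35.9% a treated Nalm6 peak and 2.91% a 697 peak. The shares were 54.0%, 36.5% and 4.96% for other treated peaks without an untreated counterpart. No peak of another line overlapped 1277 of the 3161 (40.4%). These 1277 were 32.6% of all treated JM1 LINC peaks, and 28.1% of other treated JM1 peaks overlapped no other list. Both shares are over all treated peaks, with those shared with untreated JM1 included. The lower overlap of LINC peaks with untreated JM1 therefore enters this pair. The share matching the 40.4%, over other treated peaks without an untreated counterpart, was not computed. The 40.4% cannot be called high or low for LINC peaks. Of the 761 shared with untreated JM1, 90.4% overlapped a REH peak, 79.4% a treated Nalm6 peak and 28.9% a 697 peak, against 94.8%, 85.8% and 46.4% of other shared peaks.

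Counted by gene, 292 LINC genes had a promoter class peak in either JM1 list. Both lists held 63 of them (21.6%, against 38.6% of all gene names), the treated list alone 175 (59.9%, against 43.1%) and the untreated list alone 54 (18.5%, against 18.4%). With both lists reduced to 19610 peaks by score, the treated list alone held 53 of 126 genes (42.1%, against 39.7% of all names) and the untreated list alone 50 (39.7%, against 26.5%), so the counts of the 2 lists were close at equal length. Most of the 54 were not sites missing from treated cells: the untreated promoter peak overlapped a treated peak at 40 of them (74.1%, against 91.9% of all names found in the untreated list alone), and 44 had a treated peak of some class. Of the 175, 34 had an untreated peak at the same place (19.4%, against 28.8% of all names found in the treated list alone), and 131 had a REH peak there (74.9%, against 83.1%). Genes were also counted when any part of a peak lay within 1000 bp of one of their TSSs. By that count both lists held 351 of 845 LINC genes (41.5%, against 60.3% of all GENCODE names), the treated list alone 465 (55.0%, against 38.2%) and the untreated list alone 29 (3.43%, against 1.42%).

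Among the promoter peaks of treated JM1 that overlapped no untreated peak, the highest belonged to LINC02482, with a score of 243 (percentile 99.9). Its promoter peak scored 92 in treated Nalm6, 44 in REH and 41 in 697, and the untreated JM1 list had 0 peaks for the gene. A protein-coding TSS lay 96 bp from the centre of the treated JM1 peak. Of the 5 lists, untreated JM1 was thus the one without a promoter peak at LINC02482.

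LINC02268 came next, with a peak of 335 bp that scored 79 (percentile 98.4) in treated JM1 and overlapped a peak in 0 of the other 4 lists. It was followed by LINC01116 at 58, LINC01231 at 57, LINC01569 at 52 and LINC00471 at 51, all above the 95th percentile in treated JM1. These 4 genes had 0 untreated JM1 peaks. At all 4 the treated JM1 peak overlapped a REH and a 697 peak, and at LINC01116, LINC01231 and LINC00471 a treated Nalm6 peak as well. Of these 6 promoters, LINC02268 was the exception in having no counterpart in another list.

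LINC01872 led the untreated JM1 promoter peaks without a treated counterpart. It scored 33 (percentile 97.7) in untreated JM1, and its peak was overlapped in treated Nalm6 and not in REH or 697. LINC00355 followed at 23, LINC00665 and LINC01305 at 19, and LINC02308 and LINC02371 at 17. A REH peak overlapped each of these 5, and a 697 peak overlapped 0 of the 6. LINC00665, a gene studied in several solid cancers, had 0 peaks in treated JM1 and a promoter peak scoring 18 in REH.

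Across all 5 lists, 470 LINC genes had a promoter class peak somewhere, and 15 of them (3.19%) had one in every list, against 13.7% of all gene names. Counted by any part of a peak within 1000 bp of a TSS, 153 of 1001 LINC genes (15.3%) were in every list, against 36.2% of all GENCODE names. With any class of peak, 217 of 1478 LINC genes (14.7%) were in every list, against 25.0% of all names. Of 6040 merged regions that held a LINC peak, 268 (4.44%, 3.93 to 4.99) had a peak of each list, against 8.99% of all merged regions. The rank of a LINC peak went with the number of other lists that had a peak there. No other list overlapped 32.6% of treated JM1 LINC peaks, against 28.1% of other treated JM1 peaks, and all 4 overlapped 5.56% against 13.2%. In treated JM1 the median percentile was 26.0 for the 1277 LINC peaks with no overlap, 39.5 with 1 other list, 45.6 with 2, 64.7 with 3 and 80.7 for the 218 overlapped in all 4. REH ran from 30.0 to 80.5 and treated Nalm6 from 24.5 to 81.1 over the same steps, and the share of promoter peaks climbed too, to 22.9% in treated JM1 at 4 other lists against 3.13% at none. Wider peaks overlap others more readily, so the order is a description of these lists. Ranks of other peaks over these steps were not compared, so the order cannot be called particular to LINC peaks.

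LINC01465 had the highest lowest rank of the 15. The peak on chromosome 12, whose shared interval was 62603041 to 62603458, scored 139 in treated JM1, 30 in untreated JM1, 32 in treated Nalm6, 116 in REH and 56 in 697, and its lowest percentile was 79.0, in treated Nalm6. The authors' annotation places it at the promoter of MIRLET7I, which encodes the microRNA let-7i, while the nearest-gene column gives LINC01465. The nearest coding TSS, that of MON2, was 15302 bp away from the treated JM1 peak.

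LINC02028 on chromosome 3 scored 34 in treated JM1, 18 in untreated JM1, 60 in treated Nalm6, 84 in REH and 50 in 697, with all 5 peak centres within 440 bp upstream of its TSS. HES1, a transcription factor gene of the Notch pathway, was the nearest coding gene at 64738 to 65126 bp. LINC02175 on chromosome 16 scored 51, 16, 34, 57 and 23 in the same order of lists, and LINC02674 on chromosome 10 scored 17, 15, 37, 26 and 33. The promoters of LINC02028, LINC02175 and LINC02674 all lay over 40 kb from a coding TSS.

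LINC00637 differed from these in lying beside a coding gene. Its scores were 47 in treated JM1, 14 in untreated JM1, 88 in treated Nalm6, 63 in REH and 46 in 697, and the TSS of PPP1R13B, which encodes the p53-binding protein ASPP1, lay 151 to 641 bp from the peak centres. The peak may therefore belong to either start, and the lists assign it to 1 name only. LINC01122 on chromosome 2 scored 28, 14, 37, 34 and 28, with peak centres within 54 bp of its TSS.

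The other 9 genes were LINC01896, LINC00511, LINC01703, LINC00963, LINC02762, LINC01586, LINC01607, LINC00472 and LINC02609. Their lowest percentiles ran from 2.51 to 40.3, and the lowest was in untreated JM1 for 4 of them, in 697 for 3, and in REH and treated Nalm6 for 1 each. A gene with several starts can be counted here through different peaks, as at LINC00511, where the best promoter peak lay at the first annotated start in untreated JM1, REH and 697 but farther along the gene in treated JM1 and treated Nalm6. A score of at least 20 in every list left 1 of the 15. That cut was strictest in untreated JM1, where a score of 20 stood at percentile 79.9, against 41.3 in 697.

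**Figure D4:**
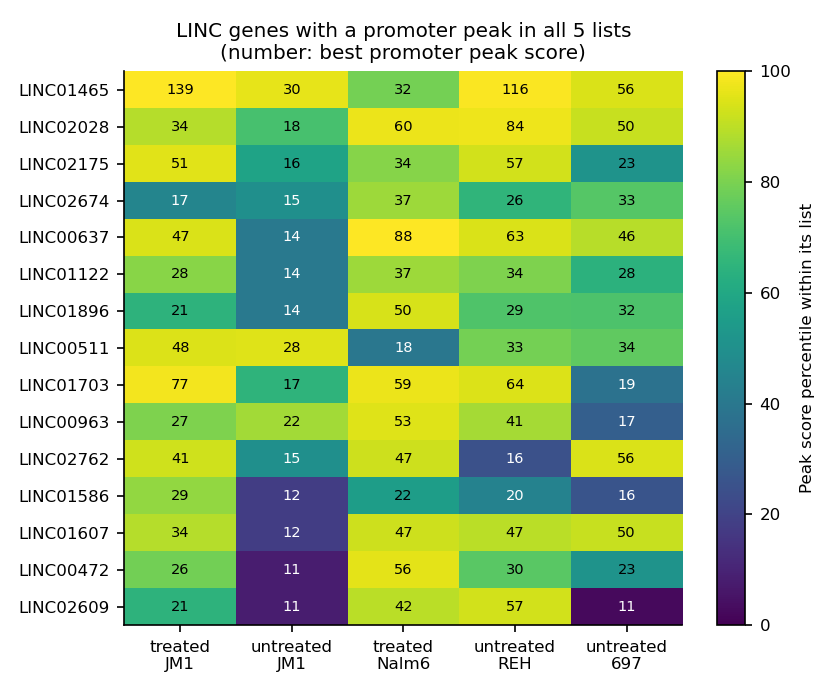
The 15 LINC genes with a promoter class peak in all 5 lists, ordered by their lowest percentile, with the colour giving the score percentile of the best promoter peak within its list and the number its score. LINC01465 (139, 30, 32, 116 and 56) and LINC02028 (34, 18, 60, 84 and 50) keep percentiles of at least 70.8 in every list, while LINC02609 falls to 2.51 in 697.

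Away from promoters, 99 of the 268 LINC regions with a peak of every list held peaks of intron or intergenic class alone. The share of such regions among all merged regions was not computed, so the 99 are given as a count only. The LINC01816 region on chromosome 2 ranked highest of the 99. It scored 112 in treated JM1, 29 in untreated JM1, 66 in treated Nalm6, 80 in REH and 62 in 697, which put it at or above percentile 95.7 in each list. The peak centre was 17112 bp upstream of the LINC01816 TSS in treated JM1, and the nearest coding TSS, that of C2orf42, was 39537 bp away.

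The LINC01694 region on chromosome 21 scored 33 in treated JM1, 34 in untreated JM1, 67 in treated Nalm6, 53 in REH and 47 in 697. Its percentiles were 88.1, 98.0, 98.4, 91.9 and 89.9 in that order. The LINC00346 region on chromosome 13 scored 42, 36, 39, 47 and 44 in the same order, with a percentile of 98.4 in untreated JM1. LINC02579, an intron site on chromosome 2, scored 48, 21, 65, 58 and 76, and LINC01169, an intron site on chromosome 15, scored 26, 22, 56, 64 and 63. All 5 regions ranked at percentile 78.9 or above in every list, although none was of promoter class.

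Single LINC peaks reached the top of a list. The intron peak of LINC01056 on chromosome 20 scored 489 in untreated JM1 (63043413 to 63044744, percentile above 99.9) and 565 in REH, the highest LINC scores in those lists. The overlapping peak scored 169 in treated JM1 (percentile 99.8) and 31 in treated Nalm6 (percentile 77.5), and 697 had no peak there. In JM1 the treated peak spanned 4051 bp and the untreated one 1332 bp. The site thus stood at the very top of the untreated JM1 and REH lists and lower in treated Nalm6. Treated Nalm6 differs from those lists in line, antibody and treatment at once, and these cannot be told apart.

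LINC01003, an exon peak on chromosome 7 with the KMT2C TSS 27527 bp away in treated JM1, was high throughout, with scores of 135 in treated JM1, 52 in untreated JM1, 50 in treated Nalm6, 124 in REH and 51 in 697 and percentiles from 92.3 to 99.7. LINC00881 had the highest LINC score of treated JM1, 249 at its promoter, against 14 in untreated JM1 for a peak of another class. Its promoter peaks scored 23 in treated Nalm6 and 96 in REH, and 697 had none. LINC01006, now named RNF32-DT, had a promoter peak of 201 in treated JM1 whose centre was 148 bp from the RNF32 TSS, and an intron peak of 132 that was the highest LINC peak of treated Nalm6.

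Naming splits some strong sites between genes. At LINC02586, now KCNC4-DT, the untreated JM1 peak scored 34 (percentile 98.0) and the 697 peak 59 (percentile 95.5), both annotated to the promoter of KCNC4, a potassium channel gene. The other 3 lists had a peak in the same merged region under the name KCNC4 instead, at percentiles of 95.4 in treated JM1, 96.9 in treated Nalm6 and 96.6 in REH. Of the 268 LINC regions found in all lists, 175 had LINC names for every peak. When each peak was given the gene of the nearest GENCODE TSS to its centre, 80.5 to 81.8% of LINC peaks again received the same gene name. A peak moved to another LINC gene, or whose gene has since been renamed, counts as changed here.

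Some LINC genes gathered many peaks. In treated JM1, 463 of the 1218 LINC genes had 1 peak and 245 had 5 or more, with a mean of 3.22 peaks per gene against 2.90 for other named genes. The means were 1.98 and 2.03 in untreated JM1, 2.87 and 2.69 in treated Nalm6, 3.26 and 2.85 in REH, and 1.32 and 1.52 in 697. LINC01164 on chromosome 10 had 33 peaks in treated JM1, 17 in untreated JM1, 39 in treated Nalm6, 39 in REH and 2 in 697. Of the 33, 28 lay past the 3′ end of the 17.8 kb gene, spread over more than 200 kb. Most of the peaks carrying this name therefore lay in the stretch behind it and not in it.

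LINC00511 on chromosome 17, an RNA studied as a growth-promoting factor in solid tumors, had 33 peaks in treated JM1, 10 in untreated JM1, 25 in treated Nalm6, 27 in REH and 4 in 697. In contrast to LINC01164, 0 of the 33 lay past the 3′ end of its 350 kb gene body. The body held 32 of them whole, the other spanned its start, and 27 were of intron class. LINC02691 on chromosome 14 had 13 peaks in treated JM1, 18 in untreated JM1, 21 in treated Nalm6, 8 in REH and 4 in 697. Because peaks can merge as they widen, a lower count need not mean less signal.

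LINC02667 had 29 peaks in treated JM1, 2 in untreated JM1, 11 in treated Nalm6, 22 in REH and 3 in 697, and LINC02074 had 28, 12, 17, 21 and 1. LINC01777 had 29 in REH but 5 in treated JM1, 0 in untreated JM1, 14 in treated Nalm6 and 1 in 697. LINC01310 had 31 in treated Nalm6 and 27 in treated JM1, LINC01823 had 25 in both REH and treated JM1, and LINC00565 had 8 in treated JM1 and 13 in both untreated JM1 and treated Nalm6. In 697 the most were 6, at LINC01342, followed by 5 at LINC00322, 5 at LINC01168 and 4 at LINC00461. More untreated than treated JM1 peaks were counted at LINC02691 and LINC00565, and also at LINC01342 (3 treated and 6 untreated), LINC00322 (9 and 11) and LINC01168 (4 and 9). The peaks of LINC02667, LINC01777, LINC01823 and LINC01310 were almost all intergenic and had median percentiles of 45.6 or less in the lists that named them.

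**Figure D5:**
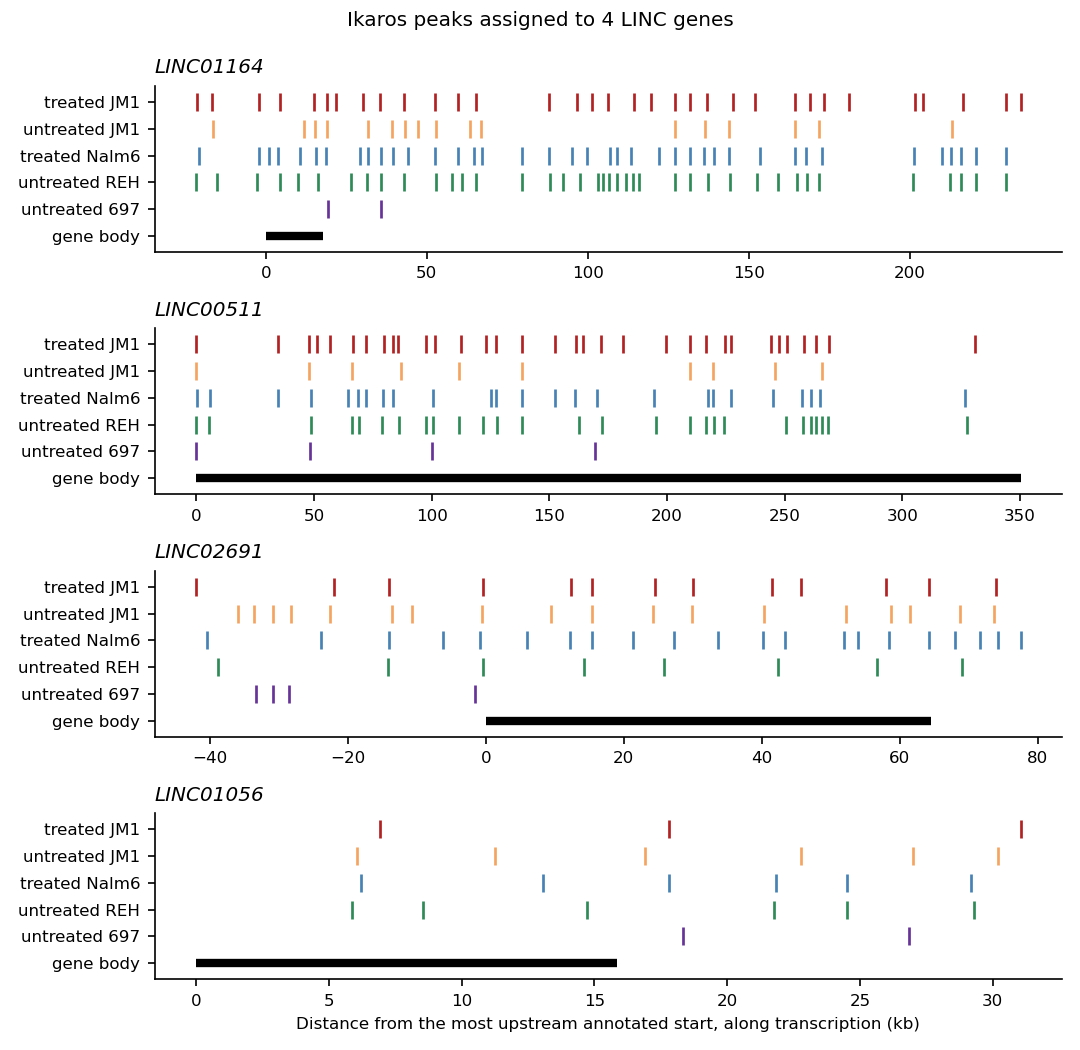
Centres of the peaks assigned to LINC01164, LINC00511, LINC02691 and LINC01056 (ticks, 1 row per list), by distance in kb from the most upstream annotated start along the direction of transcription, with the gene body as a black bar. In treated JM1, 28 of the 33 LINC01164 peaks lie past the gene, whereas 0 of the 33 LINC00511 peaks do.

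LINC genes with a known cell type were looked up as lists. Their counts stand beside the shares of all 2250 GENCODE LINC genes with a peak, given above as 52.0% in treated JM1, 25.8% in untreated JM1, 45.0% in treated Nalm6, 49.1% in REH and 14.0% in 697. All 7 LINC genes known from B cells had a peak in treated JM1, 2 of them in untreated JM1, 2 in treated Nalm6, 5 in REH and 1 in 697. A promoter class peak was present for 3 of the 7 in treated JM1, 0 in untreated JM1, 0 in treated Nalm6, 2 in REH and 0 in 697. Over all 2250 GENCODE LINC genes the promoter class shares were 10.1%, 4.98%, 9.73%, 9.96% and 3.07% in that order. LINC00926 had a best score of 26 in treated JM1, 42 in treated Nalm6, 56 in REH and 13 in 697, with 0 peaks in untreated JM1. LINC00487, an RNA of germinal centre B cells, had a promoter peak of 33 in treated JM1 and 38 in REH, with no promoter peak in the other 3 lists. LINC00494 had 13 peaks in treated JM1, 2 in untreated JM1, 8 in treated Nalm6, 10 in REH and 0 in 697. LINC01781, LINC01857, LINC02397 and LINC01215 had 1 peak each in treated JM1, at percentiles from 11.9 to 45.6, and 0 in untreated JM1.

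Genes known from other tissues were not absent. Of 7 LINC genes of the brain, 6 of them under that name in GENCODE, 5 had a peak in treated JM1, 3 in untreated JM1, 4 in treated Nalm6, 4 in REH and 3 in 697. LINC00461, the host gene of a copy of the brain microRNA miR-9, had promoter peaks of 27 in treated JM1, 36 in treated Nalm6, 36 in REH and 29 in 697, and none in untreated JM1. Of 4 liver genes, 2, 1, 2, 3 and 1 had a peak in the 5 lists, of 5 T and NK cell genes 2, 1, 1, 2 and 0, and of 4 myeloid and platelet genes, only 2 of them under that name in GENCODE, 1, 1, 0, 1 and 0. Lists of 4 to 7 genes allow no ranking of tissues.

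Of 27 LINC genes studied in leukemia or other cancers, 21 of them under that name in GENCODE, 15 had a peak in treated JM1, 14 in untreated JM1, 15 in treated Nalm6, 17 in REH and 8 in 697, and 7 had one in every list. A promoter class peak was found for 9, 10, 8, 10 and 4 of them, against 10.1%, 4.98%, 9.73%, 9.96% and 3.07% of all 2250 GENCODE LINC genes. LINC00472, LINC00511 and LINC00963 had one in all 5 lists. Of all LINC genes with a peak in any list, 217 of 1478 (14.7%) had one in every list. For promoter class peaks this was 15 of 470 (3.19%). LINC-PINT, an RNA induced by p53, had a best score of 58 in treated JM1, 25 in untreated JM1, 41 in treated Nalm6, 63 in REH and 53 in 697, at percentiles from 88.7 to 96.6. LINC00467 had a promoter peak of 68 in treated JM1, 61 in untreated JM1, 27 in treated Nalm6 and 53 in REH, and none in 697. Its untreated JM1 peak, at percentile 99.8, was the highest LINC promoter peak of that list.

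The chromosomes contributed unevenly. Chromosome 13 had the highest LINC share in every list, at 15.1% of treated JM1 peaks, 11.1% of untreated JM1 peaks, 15.4% of treated Nalm6 peaks, 15.5% of REH peaks and 9.97% of 697 peaks. Chromosome 21 came second in each, at 9.47%, 9.35%, 11.3%, 10.0% and 7.40%. Chromosome 19 was at 2.11%, 1.02%, 1.27%, 1.59% and 0.284%. The annotation is uneven in the same way, with LINC names for 11.2% of all GENCODE genes on chromosome 13, 6.79% on chromosome 21 and 1.43% on chromosome 19.

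In base composition LINC peaks, taken over all classes, stood slightly below the rest. The median GC content of the central 120 bp was 54.2% for LINC peaks and 55.8% for other peaks in treated JM1, 57.5% and 60.8% in untreated JM1, 58.3% and 60.0% in treated Nalm6, 55.0% and 56.7% in REH, and 65.8% and 70.0% in 697. TGGGAA was present in 12.7% of LINC windows (11.7 to 13.8) and 11.9% of other windows in treated JM1, 11.2% and 11.0% in untreated JM1, 13.0% and 11.2% in treated Nalm6, 12.4% and 11.9% in REH, and 9.77% (7.16 to 12.9) and 7.44% in 697. The treated Nalm6 interval of 11.8 to 14.2 lay above the share of other peaks, and those of both JM1 lists, REH and 697 included it. Within classes the treated Nalm6 LINC intervals included the shares of other peaks. They were 7.39 to 15.6 against 8.38% for promoter, 12.3 to 17.4 against 12.7% for intron, and 11.6 to 14.9 against 12.5% for intergenic peaks. Median GC content within intergenic peaks was equal for LINC and other peaks in treated Nalm6 (57.5%) and REH (55.0%), and lower for LINC peaks in both JM1 lists and 697. GGGAA was present in 35.6% and 34.2% in treated JM1, 36.0% and 34.9% in untreated JM1, 35.6% and 34.4% in treated Nalm6, 34.2% and 34.4% in REH, and 36.4% and 31.0% in 697.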

How the data were processed

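ChIP-seq used Ikaros antibodies, and the 5 inputs had no peak list used here. Per the submitters' processing notes, the tools were HOMER 4.10, MACS2 2.1.1 and Bowtie2 2.3.4.3, with GRCh38 as the build. Each list holds positions, a whole-number score of at least 10, an annotation class and a nearest gene, made by the authors before they were deposited. What the score is, the call settings and the control were not given in the sources used here, and depth is unknown. Coordinates were used as deposited.

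Peaks were ranked by score within a list, and the annotation's first word gave the class. Shares have exact 95% Clopper-Pearson intervals, and medians have 95% intervals from binomial order ranks. TSS distances used GENCODE release 44. Scripts ran in Python 3.11.15 with pandas 2.3.3 and scipy 1.17.1 and were tested on simulated data. With 1 list per condition, there was no test and no p-value. The members, lists and the split by coding TSS were chosen with earlier results of these data known, and GGGAA after TGGGAA had been searched. Genes were named by fixed rules, as the 6 best promoters in all lists, the 6 best promoter peaks of either JM1 list alone, the 4 genes with most peaks per list, the 3 best peaks per class and list, the 5 best intron or intergenic regions, and the cell type lists. Of these only a selection is printed for the best peaks per class. Added later were the genes said to share a site with another name.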

Additional observations from a re-analysis of the deposited data

How the results depend on the processing

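No paired analysis was possible because each condition had 1 list. Over 22 values and 94 alternatives, 42 moved by less than their counting interval (for counts of genes or regions, 1.5 times), 52 by more, and 0 changed direction. Values run in the order treated JM1, untreated JM1, treated Nalm6, REH and 697. A cut at a score of 20 was strictest in untreated JM1, where that score had its highest percentile. With scores of at least 20, the LINC share was 3.52, 2.12, 3.53, 3.94 and 1.75%, and with the 19610 top-scored peaks of each list 2.63, 2.56, 2.81 and 2.77% in the first 4. With GENCODE names alone it was 4.25% in treated JM1, 4.08% in treated Nalm6 and 4.28% in REH, and with the nearest GENCODE TSS 4.88% in treated JM1, 3.51% in untreated JM1 and 4.93% in REH. The promoter share was 10.8, 14.9, 11.8, 9.34 and 26.4% at scores of at least 20, 15.1, 15.1, 17.0 and 16.9% in the first 4 top-scored lists, and 10.6, 18.3, 12.6, 11.4 and 30.1% by distance to the TSS. The median percentile was 46.5 in treated JM1, 40.4 in untreated JM1 and 45.4 in REH for peaks of at most 10 kb. The mean of within-class medians was 48.4 in untreated JM1 and in 697. That mean is not the average of the class medians given above, and it should not be read against the list-wide medians.

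Overlap in JM1 was 5.76% of treated and 18.6% of untreated LINC peaks at 50% reciprocal overlap, 32.8% and 37.8% in top-scored lists, 9.50% of treated peaks at scores of at least 20, and 65.0% of untreated peaks for widths of at most 10 kb. Promoter genes numbered 13 in both JM1 lists, 12 in the untreated list alone and 1 in all 5 lists at scores of at least 20. In top-scored lists both held 23, treated JM1 alone 53, untreated JM1 alone 50 and all 5 lists 5. By distance of any part of a peak to a TSS, 351 were in both, 465 and 29 in the treated and untreated lists alone, and 153 in all 5. Regions in all 5 lists numbered 71 at scores of at least 20 and 90 in top-scored lists. The cause of these shifts was not tested. Depth is unknown, and longer lists reach lower ranks, so the size of a list limits every count of shared sites.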
